A study of Mus musculus with 15 samples.

Results

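The genes described here encode the nuclear subunits of respiratory complexes II, III, IV and V, together with cytochrome c, the carrier between complexes III and IV. Members were taken by gene name from the stage tables: names that start with Uqcr or Atp5, and Sdha, Sdhb, Sdhc, Sdhd, Cyc1, Cycs, Cox5a, Cox5b, Cox6b1, Cox6c, Cox7b, Cox7c and Ndufa4. The rule named 49 identifiers. After 10 pseudogene names and 1 second identifier of Atp5o were left out, 38 of 56748 genes remained: 4 of complex II, 9 of complex III, cytochrome c, 7 of complex IV and 17 of complex V. Complex IV isoforms that differ between muscle and other tissues were not part of the rule.

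RNA was sequenced from tibialis anterior (TA) muscle fibers, with the cells attached to them, of C57BL/6 mice of 8 weeks after 1 injection of cardiotoxin (CTX), a snake venom toxin that kills muscle fibers and starts regeneration. The 15 libraries fell into 4 groups: Proliferation Stage (4 days after CTX, n = 4), Differentiation Stage (7 days, n = 4), Maturation Stage (14 days, n = 4) and Uninjected (no CTX in the sampled muscle, n = 3). Injected muscles received 50 µL of CTX at 0.1 mg/mL in PBS with Meloxicam, and mice of every group were given a stable isotope label. In the methods, a separate group of mice with no CTX served as uninjured controls for most comparisons; the labels do not say of each Uninjected library that it came from that group rather than from the other limb of an injected mouse. The labels name the material both bulk tissue and muscle fibers. Each library carries a Subject number, and 5 mice per group are given in the methods.

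Complex II oxidizes succinate and passes the electrons to ubiquinone, complex III moves them on to cytochrome c, and complex IV hands them to oxygen. Complexes III and IV pump protons, and complex V, the ATP synthase, lets protons flow back through a ring of c subunits to make ATP. Complex II is encoded in the nucleus alone, whereas complexes III, IV and V each also hold subunits encoded in mitochondrial DNA, so their assembly draws on both genomes. Adult muscle fibers are rich in all of these complexes.

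The values are FPKM (fragments of a gene per kilobase of its length, scaled to the size of the library) as deposited. Libraries held between 1471339 and 7209330 fragments in genes, recovered from the FPKM steps, and every member had at least 159 fragments in every library. The deposited FPKM summed to 168508 to 385621 in the Proliferation Stage libraries, 260942 to 430860 in the Differentiation Stage libraries and 431734 to 483921 in the Maturation Stage libraries, against 469399 to 492337 in the Uninjected libraries. The median log2 ratio to the mean library was 0.01 to 0.05 in all libraries, so the deposited scale holds the typical gene level rather than the total. The pseudogenes left out summed to at most 18.2 FPKM in any library, and how the authors' counting placed reads shared with such copies is not given in the sources used here. A member was read on 2 scales: the deposited FPKM, and the share of each library's FPKM total in parts per 1000000 (ppm).

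Summed over the 38 genes, the Proliferation Stage libraries held 2351, 10227, 5184 and 6551 FPKM, the Differentiation Stage libraries 11151, 5680.4, 9363 and 6655 FPKM and the Maturation Stage libraries 9253, 9079, 11502 and 11828 FPKM, against 10675, 8769.9 and 9372 FPKM in the Uninjected libraries. On this scale 3 of 4 Proliferation Stage libraries lay below every Uninjected library, and replicate 2 lay among them. As a share of the FPKM total the same genes took 13953, 26520 (replicate 2), 22476 and 22217 ppm at the Proliferation Stage, 25881, 21769, 27707 and 23655 at the Differentiation Stage and 19121, 21029.8, 26404 and 24529.5 at the Maturation Stage, against 22742, 18342 and 19036 in the Uninjected libraries. On the second scale 1 Proliferation Stage library, replicate 1, lay below the Uninjected range, and replicate 2 lay above it.

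**Figure D1:**
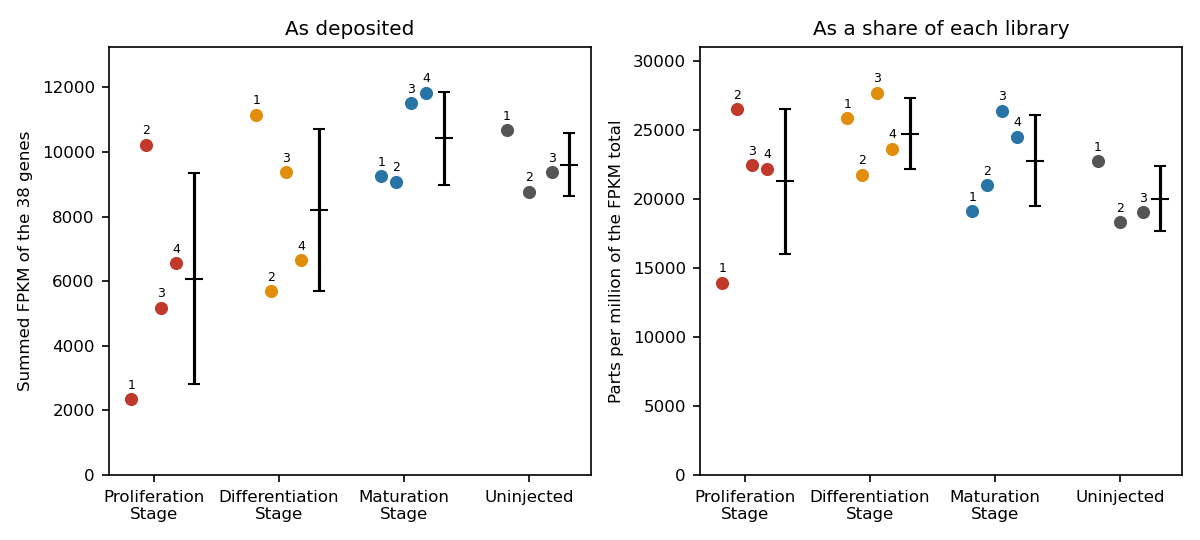
Summed level of the 38 genes in each library as deposited (left, FPKM) and in ppm of the library's FPKM total (right); points are libraries with their replicate number, and bars are the group mean ± SD. On the left replicates 1, 3 and 4 of the Proliferation Stage sit at 2351, 5184 and 6551 FPKM, below all Uninjected libraries, while on the right only replicate 1, at 13953, does.

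The members ranked the libraries of a stage in nearly the same order. In the Proliferation Stage 37 of 38 members ran from replicate 1 through 3 and 4 to replicate 2, and the highest library exceeded the lowest by 2.48-fold to 8.40-fold (all 38 members had replicate 1 lowest and replicate 2 highest). In the Differentiation Stage 33 of 38 members ran from replicate 2 through 4 and 3 to replicate 1, with a spread of 1.61-fold to 2.67-fold. The spread was 1.24-fold to 1.76-fold among Maturation Stage libraries and 1.03-fold to 1.66-fold among Uninjected libraries. Proliferation Stage replicate 1 was also, as a share of the total, the lowest for 37 of 38 members.

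At the Proliferation Stage the adult muscle fiber genes followed this order and the macrophage genes ran in its reverse. Fibro-adipogenic progenitor genes and smooth muscle and pericyte genes also ran in reverse there, and the other cell type marker lists ran in neither order. In the other groups the fiber genes did not follow the order of the members' sum. The summed FPKM of 14 adult muscle fiber genes was 7112, 75537, 28368 and 47899 in Proliferation Stage replicates 1 to 4, the same order as the members, and that of 12 macrophage genes was 3322, 1378, 2113 and 1402 in the same libraries. Across the groups the macrophage sum ranged over 1378 to 3322 at the Proliferation Stage, 85.5 to 1227 at the Differentiation Stage and 21.8 to 67.0 at the Maturation Stage, against 5.56 to 18.1 in the Uninjected libraries, and all 12 macrophage genes were called higher at the Proliferation and Differentiation Stages against Uninjected. The fiber genes were present in every library, and their sum was 106094 to 129019 FPKM at the Maturation Stage, against 76414 to 122948 FPKM in Uninjected muscle. In Uninjected replicates 1 to 3 the fiber sum was 76414, 122948 and 96519, while the members summed to 10675, 8769.9 and 9372 FPKM. Maturation Stage replicate 1 had the highest fiber sum of its group, and Differentiation Stage replicate 4 the lowest of its group. From there the Differentiation Stage fiber sum rose through replicates 2 and 3 to replicate 1. That was the order of 4 of 38 members: Sdha, Cox5a, Atp5a1 and Atp5b. The part of these cells in the results below was not tested, and in bulk samples fewer fibers and less RNA per fiber cannot be told apart.

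Complex II is made of the flavoprotein Sdha and the iron-sulfur protein Sdhb, which carry the redox groups, and the membrane anchors Sdhc and Sdhd. In replicate order, Sdha had 47.3, 214, 109.8 and 164 FPKM in the Proliferation Stage libraries, 207, 138, 204 and 108 FPKM in the Differentiation Stage libraries and 217, 262, 269 and 259.7 FPKM in the Maturation Stage libraries, against 330.1, 215 and 267 FPKM in the Uninjected libraries. Every Proliferation Stage library lay below every Uninjected library, as did every Differentiation Stage library, and the Maturation Stage libraries lay inside the Uninjected range. Sdhb had 42.2, 245, 90.0 and 135 FPKM in the Proliferation Stage libraries, 236, 106, 183 and 122 FPKM in the Differentiation Stage libraries and 200.3, 203, 279 and 282 FPKM in the Maturation Stage libraries, against 279, 184 and 239.8 FPKM in the Uninjected libraries. Here replicate 2 of the Proliferation Stage overlapped the Uninjected libraries. The log2 fold change on log2(FPKM + 0.5) at the Proliferation Stage against Uninjected was -1.19 (SE 0.53, limma adjusted p = 0.114) for Sdha and -1.12 (SE 0.57, limma adjusted p = 0.158) for Sdhb, neither past the threshold of 0.05. For Sdha it was -0.75 (SE 0.30, limma adjusted p = 0.0898) at the Differentiation Stage, the largest of any member there. Sdhc and Sdhd averaged 59.3 ± 29.4 and 161 ± 66.6 FPKM at the Proliferation Stage, against 91.5 ± 9.30 and 216 ± 40.6 FPKM in Uninjected muscle (SD, n = 4 and 3).

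In complex III the redox subunits are the Rieske iron-sulfur protein Uqcrfs1 and cytochrome c1, Cyc1. Uqcrfs1 had 83.0, 433, 214 and 302 FPKM in the Proliferation Stage libraries, 491, 252, 450.0 and 292 FPKM in the Differentiation Stage libraries and 452, 446, 609.7 and 604 FPKM in the Maturation Stage libraries, against 542, 389 and 448 FPKM in the Uninjected libraries. Its Proliferation and Maturation Stage libraries did not overlap. Cyc1 had 70.8, 336, 178 and 209 FPKM in the Proliferation Stage libraries, 335, 188, 321 and 221 FPKM in the Differentiation Stage libraries and 233, 296, 359 and 396 FPKM in the Maturation Stage libraries, against 393, 272 and 237 FPKM in the Uninjected libraries, and the groups overlapped in each comparison. The hinge protein Uqcrh, which helps cytochrome c1 meet cytochrome c, had 76.6, 258, 167 and 185 FPKM in the Proliferation Stage libraries, 325, 167, 258 and 207 FPKM in the Differentiation Stage libraries and 257, 202, 298 and 283 FPKM in the Maturation Stage libraries, against 178, 177 and 169.5 FPKM in the Uninjected libraries. Its Proliferation Stage mean of 172 FPKM was close to the Uninjected mean of 175 FPKM, with the smallest log2 fold change of the members, -0.15 (SE 0.44, limma adjusted p = 0.805), and all 4 Maturation Stage libraries lay above all 3 Uninjected libraries, with the largest, 0.55 (SE 0.16, limma adjusted p = 0.224). Taken as a share of the FPKM total, Uqcrh was 0.74 higher on the log2 scale at the Proliferation Stage (limma adjusted p = 0.0545). The core proteins Uqcrc1 and Uqcrc2 and the accessory Uqcrb, Uqcrq, Uqcr10 and Uqcr11 had log2 fold changes of -1.15 to -0.71 at the Proliferation Stage against Uninjected.

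Cycs, the soluble carrier that also triggers cell death when it leaves the mitochondrion, had 22.5, 111, 54.4 and 79.7 FPKM in the Proliferation Stage libraries, 142, 65.3, 124 and 81.0 FPKM in the Differentiation Stage libraries and 106, 115, 112 and 149 FPKM in the Maturation Stage libraries, against 128, 104 and 100.4 FPKM in the Uninjected libraries. Proliferation Stage replicate 1 was the lowest of all libraries, and the group overlapped Uninjected through replicate 2. Its log2 fold change at the Proliferation Stage was -0.93 (SE 0.51, limma adjusted p = 0.188).

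Complex IV members included Cox5a and Cox5b, which sit on the matrix side of the enzyme, and Ndufa4, first assigned to complex I and now counted with complex IV. Cox5a had 27.5, 181, 73.1 and 104 FPKM in the Proliferation Stage libraries, 178, 84.5, 147 and 82.2 FPKM in the Differentiation Stage libraries and 169.9, 158, 191 and 205 FPKM in the Maturation Stage libraries, against 206, 167 and 159.5 FPKM in the Uninjected libraries. Differentiation Stage replicates 2, 3 and 4 lay under the Uninjected minimum of 159.5 FPKM. Cox5b had 50.8, 231, 114 and 136 FPKM in the Proliferation Stage libraries, 264, 130.2, 231 and 172 FPKM in the Differentiation Stage libraries and 189.5, 175, 241 and 290.4 FPKM in the Maturation Stage libraries, against 241, 217 and 203 FPKM in the Uninjected libraries; its Maturation Stage log2 fold change against Uninjected, -0.00 (SE 0.20, limma adjusted p = 0.999), was the smallest of the members. Ndufa4 had 53.6, 319, 119.5 and 189 FPKM in the Proliferation Stage libraries, 321, 145, 249 and 173 FPKM in the Differentiation Stage libraries and 329, 266, 329 and 381 FPKM in the Maturation Stage libraries, against 314, 309 and 346 FPKM in the Uninjected libraries. It carried the largest log2 fold change at the Proliferation Stage, -1.20 (SE 0.58, limma adjusted p = 0.14), while its Maturation Stage mean of 326 ± 47.2 FPKM compared with 323 ± 19.6 FPKM in Uninjected muscle (SD, n = 4 and 3). Cox6b1, a subunit on the intermembrane side, had the smallest log2 fold change of complex IV at the Proliferation Stage, -0.45, and the other 3 members ran from -1.18 to -1.01.

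Complex V held the most abundant members per length. The alpha and beta subunits, which together form the catalytic part, are Atp5a1 and Atp5b, and gamma, the rotating shaft, is Atp5c1. Atp5a1 had 225, 925, 477 and 663 FPKM in the Proliferation Stage libraries, 834, 508, 801 and 485 FPKM in the Differentiation Stage libraries and 726, 967, 1008 and 1051 FPKM in the Maturation Stage libraries, against 1213, 817 and 926 FPKM in the Uninjected libraries. Atp5b had 219, 841, 437 and 553 FPKM in the Proliferation Stage libraries, 754, 505, 737 and 469 FPKM in the Differentiation Stage libraries and 667, 897, 927 and 943 FPKM in the Maturation Stage libraries, against 1092, 782 and 902 FPKM in the Uninjected libraries. Both lay lowest in Proliferation Stage replicate 1, and all Differentiation Stage libraries of Atp5b lay below all Uninjected libraries. Atp5c1 had 78.9, 360.4, 175 and 227 FPKM in the Proliferation Stage libraries, 297, 175, 256 and 189 FPKM in the Differentiation Stage libraries and 309, 314, 343 and 385 FPKM in the Maturation Stage libraries, against 402, 334 and 384 FPKM in the Uninjected libraries. Its Differentiation Stage libraries too did not overlap the Uninjected ones, with a log2 fold change of -0.73 (SE 0.26, limma adjusted p = 0.0616), and the Maturation Stage value was -0.15. Subunit f, Atp5j2, part of the membrane sector, had 23.2, 115, 50.7 and 62.5 FPKM in the Proliferation Stage libraries, 137, 60.7, 100.2 and 82.4 FPKM in the Differentiation Stage libraries and 109.7, 93.3, 133 and 126 FPKM in the Maturation Stage libraries, against 88.2, 91.0 and 90.9 FPKM in the Uninjected libraries. Its Differentiation Stage difference was the smallest of the members, 0.02 (SE 0.28, limma adjusted p = 0.971), and its sign turned under median centring and array weights. The other F1 subunits Atp5d and Atp5e, the peripheral stalk genes Atp5pb, Atp5h, Atp5j and Atp5o, and the membrane genes Atp5k, Atp5l, Atp5md and Atp5mpl had Proliferation Stage log2 fold changes of -1.07 to -0.37.

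The c subunit, of which the proton-driven ring is built, is encoded by Atp5g1, Atp5g2 and Atp5g3, whose products differ in the targeting peptide and yield the same mature protein. They lie on chromosomes 11 (96068852 to 96075670), 15 (102662864 to 102672352) and 2 (73908447 to 73911326), all on the minus strand of GRCm38 in GENCODE M21. The sequences upstream of the RefSeq starts of the 3 genes are shown because these genes, alike in product, had unlike levels across the stages. Each is the 250 bases before the RefSeq start on GRCm38.p6, minus strand, 5′ to 3′, at chr11:96075632-96075881, chr15:102671048-102671297 and chr2:73911327-73911576, with a match to the NRF1 motif in capitals. The RefSeq and GENCODE starts differ: the Atp5g2 stretch lies wholly inside the GENCODE gene, downstream of its GENCODE start, and the Atp5g1 stretch overlaps the first bases of its GENCODE gene.
Atp5g1: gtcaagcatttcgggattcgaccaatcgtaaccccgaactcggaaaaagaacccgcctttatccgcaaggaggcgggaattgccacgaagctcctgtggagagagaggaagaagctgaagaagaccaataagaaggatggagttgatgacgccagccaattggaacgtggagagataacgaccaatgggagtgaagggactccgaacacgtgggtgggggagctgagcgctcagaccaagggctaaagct
Atp5g2: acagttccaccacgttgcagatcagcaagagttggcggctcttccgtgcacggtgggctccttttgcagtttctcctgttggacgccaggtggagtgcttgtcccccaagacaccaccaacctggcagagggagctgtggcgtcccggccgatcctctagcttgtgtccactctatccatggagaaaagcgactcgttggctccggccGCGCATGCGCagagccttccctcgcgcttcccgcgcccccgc
Atp5g3: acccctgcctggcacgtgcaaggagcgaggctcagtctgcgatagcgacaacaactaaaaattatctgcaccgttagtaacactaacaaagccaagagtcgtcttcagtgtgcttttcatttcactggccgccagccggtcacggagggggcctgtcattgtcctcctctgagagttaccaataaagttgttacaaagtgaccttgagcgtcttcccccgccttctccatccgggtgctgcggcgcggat
Atp5g2 alone of the 3 held a match. The motifs searched, on both strands and with no overlap between them, were those of the nuclear respiratory factor NRF1 (its 10-letter core with 1 open pyrimidine), ETS family factors such as GABPA (CCGGAAG) and YY1 (ATGGCGGC). Of the 30 members with a promoter in the RefSeq table, 3 held the NRF1 letters (Atp5g2, Atp5k and Sdhd), 7 the ETS letters and 0 the YY1 letters, or 10.0%, 23.3% and 0%, against 1.89%, 7.05% and 1.04% of 27025 promoters of the same length. A match is a run of letters, not a bound site.

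Atp5g1 had 15.3, 129, 43.5 and 63.0 FPKM in the Proliferation Stage libraries, 134, 52.8, 98.7 and 74.6 FPKM in the Differentiation Stage libraries and 80.5, 102, 113 and 129 FPKM in the Maturation Stage libraries, against 132, 102 and 102 FPKM in the Uninjected libraries. Proliferation Stage replicate 1 held 15.3 FPKM and replicate 2 held 128.6 FPKM, the widest spread of any member in that group. Atp5g2 had 60.7, 150.4, 105 and 106 FPKM in the Proliferation Stage libraries, 148, 79.6, 114 and 96.0 FPKM in the Differentiation Stage libraries and 121, 94.3, 105 and 137 FPKM in the Maturation Stage libraries, against 98.2, 119 and 131 FPKM in the Uninjected libraries. Atp5g3 had 108, 382, 261 and 256 FPKM in the Proliferation Stage libraries, 458, 240.2, 416 and 287 FPKM in the Differentiation Stage libraries and 303, 296, 442 and 426 FPKM in the Maturation Stage libraries, against 344, 266 and 272 FPKM in the Uninjected libraries. Both overlapped the Uninjected libraries in every stage. At the Proliferation Stage against Uninjected the log2 fold change was -1.19 (SE 0.63, limma adjusted p = 0.172) for Atp5g1, -0.20 (SE 0.36, limma adjusted p = 0.686) for Atp5g2 and -0.35 (SE 0.47, limma adjusted p = 0.589) for Atp5g3. Both turned positive as a share of the FPKM total and under quantile normalization.

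The share of each gene in the summed FPKM of the 3 does not depend on the scale. It was looked at after the values were seen. Atp5g1 took 8.34%, 19.4%, 10.6% and 14.8% of the c subunit transcripts in the Proliferation Stage libraries, 18.1%, 14.2%, 15.7% and 16.3% in the Differentiation Stage libraries and 15.9%, 20.7%, 17.1% and 18.6% in the Maturation Stage libraries, against 23.0%, 20.9% and 20.2% in the Uninjected libraries. The Proliferation and Differentiation Stage libraries all lay below the Uninjected libraries, and the Maturation Stage overlapped them through replicate 2. The mean was 13.3% ± 4.90 at the Proliferation Stage, 16.1% ± 1.62 at the Differentiation Stage and 18.1% ± 2.05 at the Maturation Stage, against 21.4% ± 1.46 in Uninjected muscle (SD, n = 4, 4, 4 and 3). Two-sided exact permutation tests gave p = 0.0571, 0.0286 and 0.0857 for these stages in turn, where 0.0286 is the smallest that 35 splits allow. Atp5g3 took 63.8% ± 1.89 at the Differentiation Stage and 62.2% ± 3.29 at the Maturation Stage, against 56.1% ± 3.30 in Uninjected muscle, with an exact permutation p of 0.0286 for each. None of the 18 tests of the 3 genes over 6 comparisons passed 0.05 after Benjamini-Hochberg adjustment, where the lowest exact value became 0.129.

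**Figure D2:**
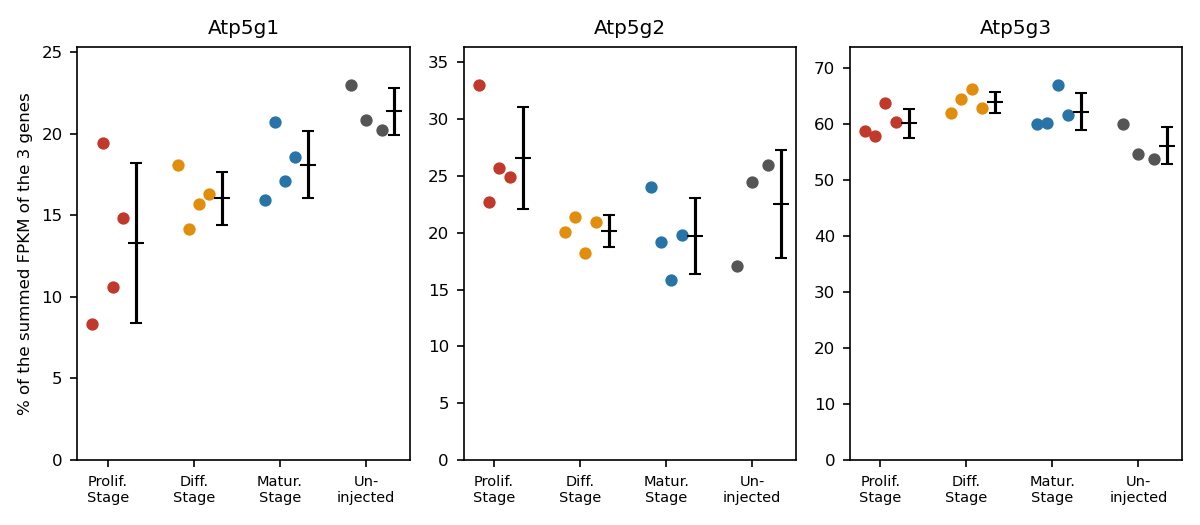
Percent of the summed FPKM of Atp5g1, Atp5g2 and Atp5g3 that each gene took in each library; points are libraries and bars the group mean ± SD. The Atp5g1 share was 8.34% to 19.4% at the Proliferation Stage and 14.2% to 18.1% at the Differentiation Stage, below the Uninjected range of 20.2% to 23.0%.

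The comparison of the Proliferation Stage with Uninjected asks how the respiratory genes stood 4 days after CTX. All 38 log2 fold changes were below 0, with a median of -0.92 and a range of -1.20 to -0.15, beside a median of 0.05 over all 13166 genes tested. Sdha and Cox7b were the 2 members whose libraries all lay below the Uninjected ones and 0 lay above, where 17.1% and 25.6% of all genes did so. None passed an adjusted p of 0.05 in limma, against 9.05% of all genes called lower and 20.1% called higher. At an unadjusted p under 0.05 the count of members was also 0, and in the unpaired test on FPKM it was 0 after adjustment. The standard errors of 0.36 to 0.63 log2 units rested on the spread within both groups, shared over genes, and were not split by group. Without Proliferation Stage replicate 2, 16 members were called lower, where 2186 of 12901 genes were. As a share of the FPKM total the median was -0.03, with 18 of 38 members above 0, while the median of all genes was 0.89, with 35.8% called higher and 1.28% lower. By complex, the deposited median was -0.94 for complex II, -0.94 for complex III, -1.05 for complex IV and -0.73 for complex V.

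At the Differentiation Stage, when new fibers form, 31 of 38 members had a log2 fold change below 0 against Uninjected, with a median of -0.21 and a range of -0.75 to 0.41. Limma called 0 members, beside 12.5% of 12983 genes called lower and 17.0% called higher, and 2 members had an unadjusted p under 0.05. Sdha, Atp5b and Atp5c1 were the 3 members whose libraries did not overlap the Uninjected ones, all lower, where 17.4% of all genes did so. Without Differentiation Stage replicate 1, 3 members were called lower, where 1966 of 12710 genes were. On the share scale the median turned to 0.37, with 31 of 38 members above 0 and 9 called higher, where 30.7% of all genes were called higher and 4.35% lower, and the median of all genes was 0.59.

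At the Maturation Stage against Uninjected, 31 of 38 members lay above 0, with a median of 0.15 and a range of -0.15 to 0.55. Limma called 0 members, and 0.0245% of 12253 genes were called higher and 0% lower. Here 3 members had an unadjusted p under 0.05, and the unpaired test on FPKM called 0. Uqcrh, Atp5j2 and Atp5k, the subunit e of the ATP synthase, had all 4 Maturation Stage libraries above the Uninjected ones, where 6.70% of all genes did, and 0 members lay below, where 5.88% did. The standard errors, at 0.14 to 0.24 log2 units, were the smallest of the 3 comparisons with Uninjected. Taken as a share of the FPKM total, the median was 0.21 and 0 members were called, beside 0.0653% of all genes called higher.

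**Figure D3:**
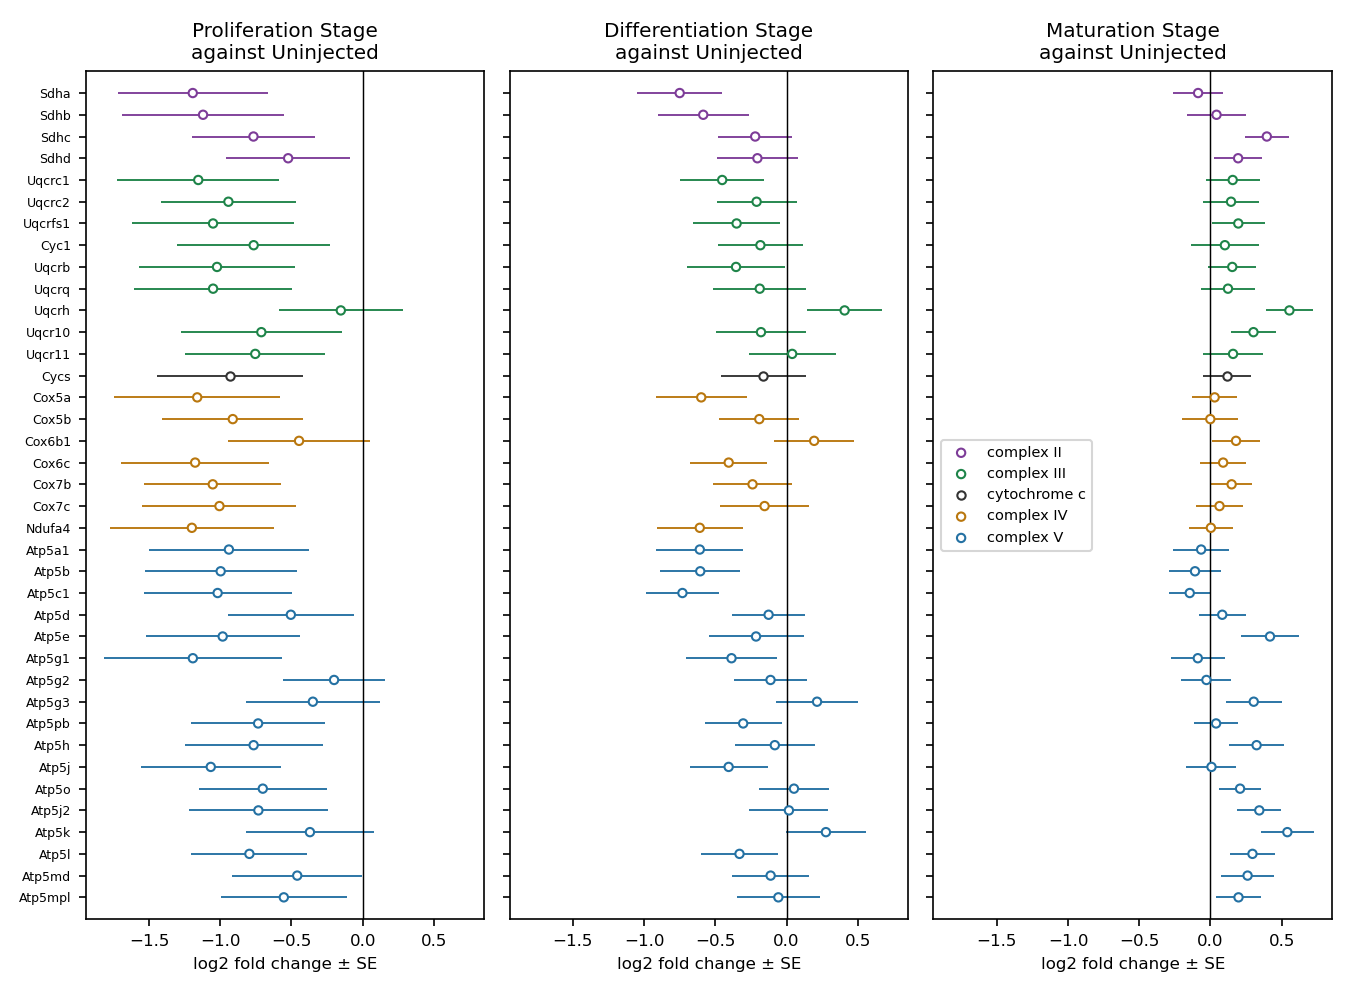
Log2 fold change on log2(FPKM + 0.5) of each member against Uninjected at the 3 stages, with its standard error from limma (bars), by complex. All 38 points lie below 0 at the Proliferation Stage (median -0.92), 31 lie below 0 at the Differentiation Stage and 31 above 0 at the Maturation Stage; every circle is open, since none was called.

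The comparison of stages with each other asks when the respiratory genes moved. From all 15 libraries fitted together, 18 of 38 members were called higher and 0 lower at the Maturation Stage against the Proliferation Stage, where 13.3% of 14576 genes were called higher and 20.5% lower. They were Sdha, Sdhb and Sdhc of complex II, Uqcrc1, Uqcrc2, Uqcrfs1, Uqcrb and Uqcrq of complex III, Cox5a, Cox6c, Cox7b and Ndufa4 of complex IV, and Atp5e, Atp5h, Atp5j, Atp5o, Atp5j2 and Atp5l of complex V. All 38 log2 fold changes lay above 0, with a median of 1.06 beside -0.06 over all genes. The largest belonged to Atp5e, subunit epsilon, 1.40 (SE 0.43, limma adjusted p = 0.0232), and the smallest to Atp5g2, 0.17 (SE 0.27, limma adjusted p = 0.658). Uqcrfs1 rose by 1.25 (SE 0.42, limma adjusted p = 0.0339) on the log2 scale, Ndufa4 by 1.20 (SE 0.43, limma adjusted p = 0.0429), Cox5a by 1.19 (SE 0.44), Sdha by 1.11 (SE 0.39, limma adjusted p = 0.0396) and Sdhb by 1.16 (SE 0.43, limma adjusted p = 0.0495). Cycs, at 1.05 (SE 0.39, limma adjusted p = 0.0533), and Atp5a1, Atp5b and Atp5c1, at 0.87 to 0.89, were not called. Only 5 members (Sdha, Sdhc, Uqcrc2, Uqcrfs1 and Cox7b) had Maturation Stage libraries that all lay above the Proliferation Stage libraries, where 11.4% of all genes did and 19.4% lay below, and their two-sided exact permutation p was 0.0286, the smallest that 70 splits allow.

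These calls changed with the scale and with single libraries. All 18 stayed called under quantile normalization, where 21 members and 2650 of 14576 genes were called higher. They also stayed called under median centring (24 members, 2977 of 14576 genes) and with a filter of 5 FPKM (21 members, 1672 of 6280 genes). With a pseudocount of 0.1 and of 1, 16 of them stayed called (1897 and 1932 of 14576 genes). As a share of the FPKM total the median was 0.24, no member was called higher and Atp5g2 was called lower, at -0.65 (limma adjusted p = 0.0044), while the median of all genes was -0.82, with 3.05% called higher and 45.7% lower. On the deposited scale, leaving out Proliferation Stage replicates 1, 2, 3 and 4 gave 2, 37, 1 and 13 members called higher. Leaving out Maturation Stage replicates 1, 2, 3 and 4 gave 6, 7, 3 and 1. Without Proliferation Stage replicates 1 to 4 in turn, 959 of 14314, 2622 of 14476, 837 of 14357 and 1948 of 14466 genes were called higher. Without Maturation Stage replicates 1, 2, 3 and 4 the counts of all genes were 1349, 1367, 1410 and 1341, of 14457 to 14494. A fit of only the 2 groups called 1 member higher, where 1180 of 13413 genes were. Several genes lay near the threshold: the limma adjusted p was 0.04995 for Cox5a and 0.0533 for Cycs.

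**Figure D4:**
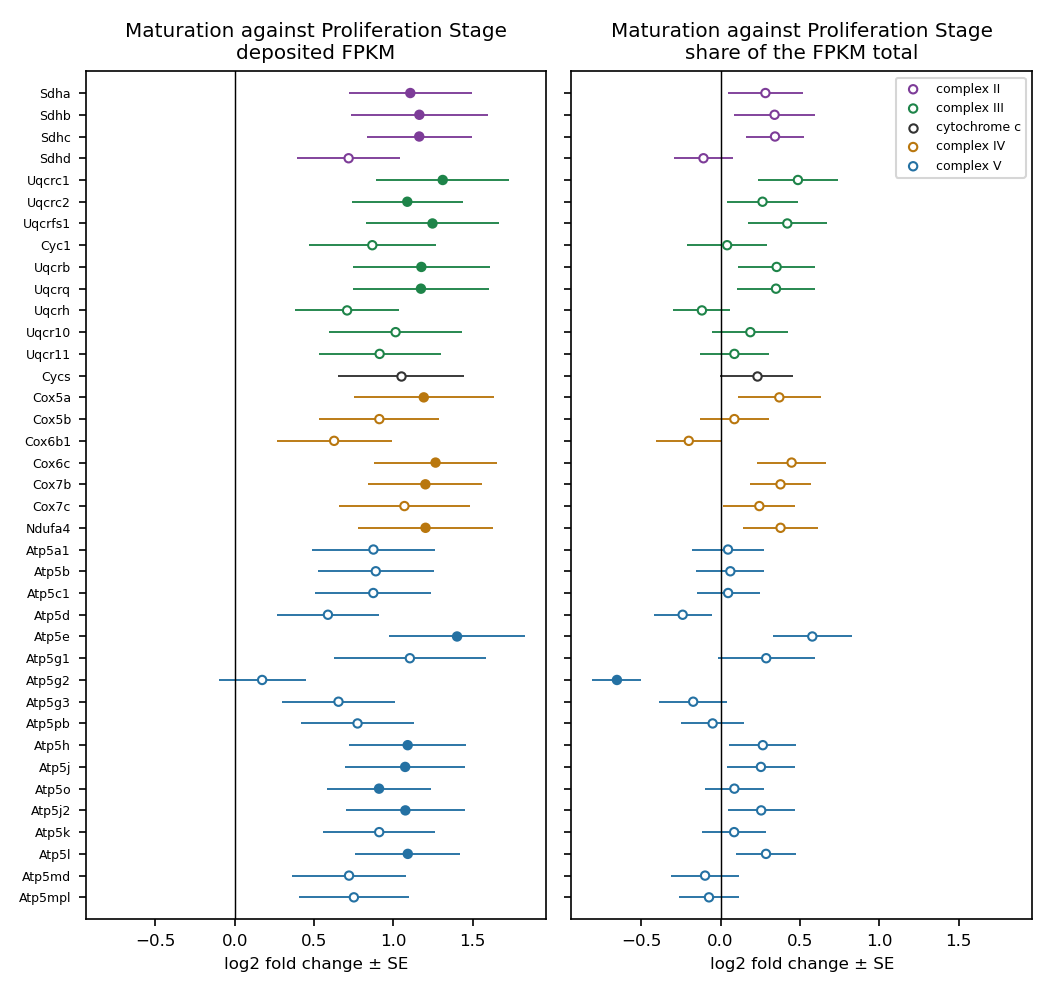
Log2 fold change ± SE (limma) of each member at the Maturation Stage against the Proliferation Stage, on deposited FPKM (left) and on shares of the FPKM total (right); filled circles passed an adjusted p of 0.05. On the left all 38 points lie above 0 and 18 are filled; on the right 29 lie above 0 and only Atp5g2, at -0.65, is filled.

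At the Differentiation Stage against the Proliferation Stage all 38 members lay above 0, from 0.09 for Atp5g2 to 0.86 for Uqcrq, with a median of 0.62, and limma called 0 of them beside 1.13% of all genes called higher and 1.93% lower. At the Maturation Stage against the Differentiation Stage 37 of 38 lay above 0, with a median of 0.38 and the largest value for Sdha at 0.66, and limma called 0 beside 4.71% called higher and 9.54% lower. At an unadjusted p under 0.05 the counts of members were 2 and 0, and the unpaired test on FPKM called 0 in each. On the share scale the medians were 0.30 and -0.13, so the second turned sign, and 0 members were called, beside 0.254% called higher and 0.94% lower in the earlier comparison and 1.28% and 12.7% in the later one. In the earlier comparison 0 members had groups that did not overlap on the higher side and 0 on the lower side (3.29% and 5.62% of all genes), and in the later one 2, Sdha and Atp5c1, and 0 (11.2% and 13.5%).

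The make-up of the set was also described against Uninjected, on a measure that the scale does not touch. The counts of members outside the Uninjected range were not tested against those of all genes. Each member was taken as a percent of the 38 genes' summed FPKM. Uqcrh took 2.52% to 3.26% at the Proliferation Stage, 2.76% to 3.11% at the Differentiation Stage and 2.23% to 2.78% at the Maturation Stage, against 1.67% to 2.02% in Uninjected muscle. Atp5k took 2.22% to 2.68%, 2.30% to 2.92% and 2.06% to 2.67% at these stages in turn, against 1.61% to 1.85% in Uninjected muscle. Atp5c1 ran the other way, at 3.36% to 3.52%, 2.67% to 3.08% and 2.98% to 3.46%, against 3.76% to 4.10% in Uninjected muscle. Uqcrh, Atp5k and Atp5g3 lay above the Uninjected range in every library of every stage, and Atp5c1 below it. At the Differentiation Stage 9 members lay above and 7 below it, the lower ones being Sdha, Cox5a, Ndufa4, Atp5a1, Atp5b, Atp5c1 and Atp5j, where 21.5% and 8.62% of all genes lay above and below relative to the same sum. At the Proliferation Stage 7 lay above and 3 below (28.6% and 4.22% of all genes), and at the Maturation Stage 5 above and 1 below (4.29% and 5.29%).

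The same tests were read for gene lists next to the members. Complex I nuclear subunits, the first entry point of electrons, had a median log2 fold change of -0.95 at the Proliferation Stage against Uninjected, with 0 of 36 called higher and 1 lower, and 21 of 36 were called higher at the Maturation Stage against the Proliferation Stage, where the median was 1.04 and 13.3% of all genes were called higher. On the share scale 1 of the 36 was called higher there, and the median was 0.24. The 6 mitochondrially encoded subunits of complexes III to V, the partners of the members inside the same enzymes, had medians of -2.45 at the Proliferation Stage, -1.72 at the Differentiation Stage and -0.57 at the Maturation Stage against Uninjected. Of these 6, mt-Cytb, mt-Co1, mt-Co2, mt-Co3 and mt-Atp6 were called lower at the Differentiation Stage, where no member and 12.5% of all genes were. mt-Co1, the catalytic core of complex IV, averaged 16456 FPKM at the Differentiation Stage, against 40211 FPKM in Uninjected muscle, a log2 fold change of -1.36 (SE 0.43, limma adjusted p = 0.0433). On the share scale 4 of the 6 were called lower at that stage, where 4.35% of all genes were. Libraries were made from poly-A RNA. The difference between these lists and the members was not tested.

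Of 31 assembly factors of complexes II to V, 28 were tested against Uninjected. At the Proliferation Stage 0 were called higher and 2 lower, and at the Differentiation Stage 1 higher and 4 lower. Of all genes 20.1% were called higher and 9.05% lower at the Proliferation Stage, and 17.0% and 12.5% at the Differentiation Stage. Atpaf1, a chaperone that helps the F1 part of the ATP synthase form, averaged 4.08 FPKM at the Proliferation Stage and 4.57 FPKM at the Differentiation Stage, against 9.98 FPKM in Uninjected muscle, with log2 fold changes of -1.30 (SE 0.38, limma adjusted p = 0.0377) and -1.03 (SE 0.20, limma adjusted p = 0.0078). Of 16 regulators of mitochondrial gene expression, 1 was called higher and 1 lower at the Proliferation Stage, and of the 15 tested at the Differentiation Stage 0 were called higher and 3 lower. Tfb2m, a factor of mitochondrial transcription, fell to 6.84 FPKM at the Proliferation Stage and 7.71 FPKM at the Differentiation Stage, against 14.7 FPKM in Uninjected muscle, with limma adjusted p of 0.0469 and 0.0121. Esrra, a nuclear receptor that drives respiratory genes, averaged 18.7 FPKM at the Differentiation Stage, against 39.7 FPKM in Uninjected muscle (log2 fold change -1.06, SE 0.30, limma adjusted p = 0.0307). The counts of calls changed with the scale. As a share of the FPKM total 3 assembly factors were called higher and 0 lower at the Proliferation Stage. At the Differentiation Stage 7 were called higher and 0 lower on that scale. Of all genes 35.8% were called higher and 1.28% lower there at the Proliferation Stage, and 30.7% and 4.35% at the Differentiation Stage. These counts do not show that a gene called lower as deposited was called higher as a share. Of the regulators 2 were called higher and 0 lower at the Proliferation Stage on that scale, and 1 higher and 0 lower at the Differentiation Stage. Of 13 enzymes of the citric acid cycle, which feeds complex II, 0 were called at the Proliferation Stage. At the Differentiation Stage 4 were called lower, where 12.5% of all genes were. As a share of the FPKM total 0 were called lower at that stage, where 4.35% of all genes were. At the Maturation Stage against the Proliferation Stage 10 were called higher, where 13.3% of all genes were. As a share of the FPKM total 3 were called higher in that comparison, where 3.05% of all genes were.

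Protein synthesis was measured in the same study by heavy water labelling. The authors' table gives, for 127 proteins, a log2 ratio of fractional synthesis rate (FSR) in injected over uninjured muscle, as 1 value per stage with no error in that table, from fibers depleted of CD45+ cells, a step the RNA methods do not mention. It lists 24 of the 38 members. At the Proliferation Stage 10 had a value, 5 above and 5 below 0, from the authors' -2.97 for Cycs to 1.55 for Atp5l, subunit g of the ATP synthase. Of these the authors marked only Sdhb and Uqcrc1 as significant against control after correction, and not Cycs or Atp5l. At the Differentiation Stage 23 of 24 were above 0, with a median of 2.18 beside 2.19 over all 127 proteins, and Sdhb, at -1.27, was the exception. The authors marked no member as significant at that stage. All 23 members with a Maturation Stage value were above 0, with a median of 1.51 beside 1.56 over 125 proteins. The authors marked most of them as significant against control at that stage, among them Uqcrc1, Cycs, Cox5a and Atp5b. Uqcrb, Uqcrq, Sdha, Atp5d and Atp5pb were not marked, and Cox6c was in bold type without the mark.

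Within a complex the FSR ratios are given as values only, since the study's errors of the FSR were not used here and no difference between proteins was tested. Sdha had 1.00 at the Differentiation Stage and Sdhb -1.27. Of the ATP synthase, Atp5j, coupling factor 6, had the highest value at 4.20 and Atp5pb, subunit b of the same stalk, the lowest at 0.88. Complex III members lay between 1.77 for Uqcrc2 and 2.73 for Uqcrh, and complex IV members between 2.05 for Cox5a and 2.75 for Cox6b1. At the Differentiation Stage 20 members had an FSR ratio above 0 and a mean FPKM below that of Uninjected muscle, and at the Maturation Stage 4 did. These measures are unlike, since FSR is a rate over days of labelling and FPKM a level at the end of them. Atp5b, for example, had an FSR ratio of 2.65 beside a log2 ratio of mean FPKM of -0.59 at the Differentiation Stage. The sign of the mRNA ratio depended on the scale, as above.

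**Figure D5:**
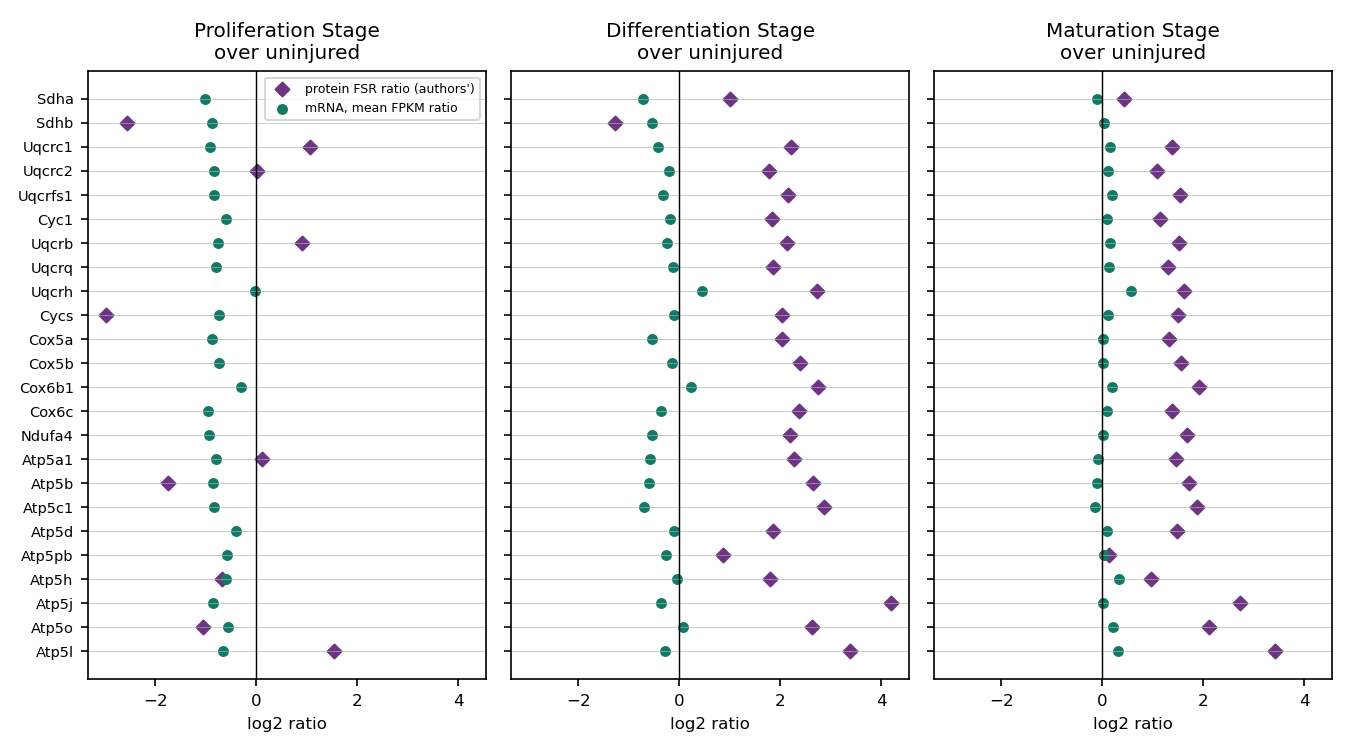
The authors' log2 FSR ratio (diamonds, injected over uninjured) and the log2 ratio of mean deposited FPKM over Uninjected (circles) of the 24 members with a listed protein, at the 3 stages; both are drawn without errors. At the Differentiation Stage 23 of 24 diamonds lie right of 0, with Sdhb at -1.27, and 21 of 24 circles lie left of 0.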

How the data were processed

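RNA was sequenced from TA muscle fibers in 15 libraries, and the deposited FPKM were made by the authors on mm10, as the submitters' processing notes give it; which aligner, counting tool and gene models they used is not given in these sources. In the 3 stage tables the Uninjected columns hold the same values (0 differ). Columns of per-sample values left unused: 0. The deposited FSR table holds log2 ratios that the authors pooled per stage; they were printed as the authors' values because they are part of the comparison, and were not tested, and the authors' own fold change, p-value and mean columns and a table of myogenic and cell cycle genes were not used. FSR rows were matched to members through the FPKM that the authors list beside each protein.

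Genes that reached 0.5 FPKM in 3 or more libraries were tested on log2(FPKM + 0.5) with limma 3.58.1 in R 4.3.3 (trend and robust), with Benjamini-Hochberg adjustment over all genes tested and a threshold of 0.05. A fold change on this scale understates the change of low genes. Each stage was set against Uninjected in a fit of those libraries alone, and stages were compared in a fit of all 15 libraries. Exact permutation tests were two-sided, and p = 0.0286 is the smallest that either design, with 35 or 70 splits, can give. Fragments were recovered from FPKM steps with GENCODE M21 lengths, where values within 0.01 of a whole number were called whole, which held for 90.4% to 95.0% of values under 50 fragments. The scripts were tested on simulated data.

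The members and gene lists were chosen with earlier results of these data known. All members were counted. Values per library were printed for the redox and catalytic subunits, the c subunit genes, Ndufa4, and the members with the largest and smallest difference in each comparison with Uninjected; the rule also took members called at the Maturation Stage against Uninjected, or against the direction of most called members, and these were 0. Alternatives changed the pseudocount, the filter, the scale, the weights, the libraries, the fit and the test. The labels give each library a Subject number but do not say that a number links libraries of different groups, so the number entered only 1 alternative, as a replicate block. That an Uninjected muscle could share a mouse with an injected one was not modelled.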

Additional observations from a re-analysis of the deposited data

Results flagged for a closer look

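18 members were called different between the Maturation and the Proliferation Stage in their difference from Uninjected. The test was the contrast of the stages in the limma fit of all 15 libraries, whose groups differed in spread. On the log2 scale the difference was 1.11 for Sdha, 1.16 for Sdhb and 1.16 for Sdhc of complex II. In complex III it was 1.31 for Uqcrc1, 1.09 for Uqcrc2, 1.25 for Uqcrfs1, 1.18 for Uqcrb and 1.17 for Uqcrq. Complex IV had 1.19 for Cox5a, 1.27 for Cox6c, 1.20 for Cox7b and 1.20 for Ndufa4. The ATP synthase had 1.40 for Atp5e, 1.09 for Atp5h, 1.07 for Atp5j, 0.91 for Atp5o, 1.08 for Atp5j2 and 1.09 for Atp5l. None of the 18 stayed called as a share of the FPKM total or in the unpaired test on FPKM, and 1 stayed called in a fit of the 2 groups. All 18 stayed called under quantile normalization, under median centring and with a filter of 5 FPKM.

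Atp5b in Maturation Stage replicate 1 (667 FPKM) stood apart from the other 3 libraries (897 to 943 FPKM), with a gap of 0.832 of the group's range, above Dixon's 95% critical value for 4 samples. Of 114 such groups of 4 libraries this was the only one, where chance gives about 1 in 20.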

How the results depend on the processing

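Members called lower at the Proliferation Stage against Uninjected numbered 0 as deposited, 3 with array weights and 3 in a fit of all 15 libraries, and 0 to 16 with 1 library left out. Of all genes 2124 of 13166 were called lower with array weights and 2126 of 14576 in the fit of all 15 libraries. At the Differentiation Stage against Uninjected 9 members were called higher as a share of the FPKM total, 1 as a share of nuclear FPKM and 2 under quantile normalization. Of all 12983 genes 3992, 2447 and 1710 were called higher under these settings in turn. Under median centring 1 member was called lower, and 1 with array weights, where 2219 and 2015 of 12983 genes were. With 1 library left out 0 to 3 members were called lower. At the Maturation Stage against the Differentiation Stage array weights called 4 higher, against 0 as deposited, where they called 1709 of 14576 genes higher. At the Maturation Stage against the Proliferation Stage, where 18 were called higher as deposited, the count was 7 with no filter, 0 as a share of the FPKM total, 1 as a share of nuclear FPKM, 30 with array weights, 0 in the unpaired test on FPKM, 1 in a fit of the 2 groups and 1 to 37 with 1 library left out, and 1 was called lower on each share scale. Of all genes 1391 of 26304 were called higher there with no filter, 592 of 14576 as a share of nuclear FPKM and 2214 of 14576 with array weights. The unpaired test on FPKM called 416 of 13413 genes higher there. On the 2 share scales 6667 and 5710 of 14576 genes were called lower. With the Subject number as a replicate block 3 members were called higher there, where 1348 of 14576 genes were, and 0 members in the other comparisons. Deviations of same-numbered libraries correlated at -0.59 to 0.13, so the numbers were not taken as pairs. The cause of these differences was not tested, save that a left-out library gives fewer samples.

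As a share of the FPKM total 18 of 38 members were above 0 at the Proliferation Stage against Uninjected, against 0 as deposited. Among the members with values per library, 5 turned sign there. On the FPKM total share scale the log2 fold change was 0.13 for Cyc1, 0.69 for Atp5g2, 0.54 for Atp5g3, 0.74 for Uqcrh and 0.16 for Atp5j2. For the nuclear share it was 0.33 for Atp5g2, 0.18 for Atp5g3 and 0.38 for Uqcrh, and under quantile normalization 0.0197, 0.0183 and 0.0942 for the same genes. With 1 library left out it ran from -0.39 to 0.0396 for Atp5g2, -0.60 to 0.0118 for Atp5g3 and -0.39 to 0.19 for Uqcrh. Atp5j2 at the Differentiation Stage against Uninjected was -0.16 under median centring, -0.10 with array weights and -0.18 to 0.21 with 1 library left out. Cox5b at the Maturation Stage against Uninjected was 0.0669 as a share of the FPKM total, 0.16 with array weights, 0.0243 in the unpaired test and -0.14 to 0.11 with 1 library left out. At the Maturation Stage against the Proliferation Stage Atp5g2 was -0.65 as a share of the FPKM total, -0.49 as a share of nuclear FPKM, -0.10 under quantile normalization and -0.0681 to 0.37 with 1 library left out, Atp5g3 was -0.17 and -0.00686 on the 2 share scales, and Uqcrh was -0.12 as a share of the FPKM total. The cause was not tested.

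Of all genes called at the Proliferation Stage against Uninjected, 69.0% were higher as deposited, 96.5% and 90.0% on the 2 share scales, 50.7% under quantile normalization and 50.1% under median centring. At the Maturation Stage against the Proliferation Stage the figures were 39.3%, 6.26%, 9.39%, 53.2% and 57.0% in the same order. They were 57.6%, 87.6%, 72.5%, 46.6% and 43.8% at the Differentiation Stage against Uninjected. For the Maturation Stage against the Differentiation Stage, 686, 187, 246, 753 and 1131 genes were called higher under these settings in turn and 1390, 1845, 1796, 882 and 989 lower. The share higher was 37.0% as deposited for the Differentiation Stage against the Proliferation Stage, and 21.3% and 24.4% on the 2 share scales. Each member had at least 159 fragments in every library.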
